A study of Homo sapiens with 11 samples.

Results

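The genes encoding ubiquitin-conjugating (E2) enzymes were examined in breast and ovarian cancer cells transfected with the miRNA miR-365a. Members were the rows of the expression values whose symbol is UBE2 followed by a letter and, where there is one, a number. There were 33 such genes of 31325 rows. The symbol was the only criterion, so genes that encode E2 enzymes under other names, such as CDC34, were not members.

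E2 enzymes are the middle step of a 3-enzyme cascade. An E1 enzyme activates ubiquitin, the E2 carries it as a thioester on a catalytic cysteine, and an E3 ligase brings the loaded E2 to the substrate. The E2 often sets whether a single ubiquitin or a chain is built and through which lysine the chain grows, and chains of different linkage send proteins to the proteasome or serve in signaling and DNA repair. Some E2 enzymes carry other modifiers, among them NEDD8 and ISG15.

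The mRNA was measured on 11 Illumina HumanHT-12 v4 arrays, with 1 array per sample. MDA-MB-231, a breast cancer cell line, had 3 arrays of cells transfected with miR-365a-3p and 3 of cells transfected with a control miRNA. SKOV3, an ovarian cancer cell line, had 3 miR-365a-3p arrays and 2 control arrays. The labels give 48 h of treatment for all 4 groups, while the series text gives 24 h, and the paper names the ovarian line SKOV3.ip1. Each tissue is represented by 1 cell line, and the control cells received a miRNA too. Nothing states whether replicates were separate cultures, so p-values measure the spread between these arrays, which may be technical.

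The transfected miRNA is shown because it is the only agent that separates the groups. The reference holds the same mature sequence under 2 names, hsa-miR-365a-3p at chr16:14309340-14309361 and hsa-miR-365b-3p at chr17:31575478-31575499, both on the plus strand of GRCh38.p14 and taken from RefSeq. Capitals mark the seed, bases 2 to 8, through which a miRNA pairs with its target mRNAs.
hsa-miR-365a-3p: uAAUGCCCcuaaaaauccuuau
hsa-miR-365b-3p: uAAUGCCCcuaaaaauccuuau
No transcript sequences were used here, so the E2 mRNAs were not searched for matches to this seed.

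Values are log2 expression after quantile normalization of the deposited values across the 11 arrays. The deposited arrays did not share a distribution, and their 75th percentile averaged 7.91 in MDA-MB-231 controls and 7.62 in MDA-MB-231 miR-365a cells, 8.01 in SKOV3 controls and 7.74 in SKOV3 miR-365a cells (exact permutation within lines, two-sided p = 0.005, the smallest it can give). This difference runs with the treatment, so counts are also given on the deposited scale. A gene is called near the floor where its mean was under 7.45, the 60th percentile of row means, in all 4 groups. Of the line markers, ERBB2 averaged 7.61 in MDA-MB-231 controls and 10.86 in SKOV3 controls, EPCAM 7.63 and 10.36, and PAX8 7.40 and 8.18, while CDH1 was near the floor in both lines. The 4 markers listed for MDA-MB-231 did not separate the control lines: AXL was at 12.84 and 11.59 (adjusted p = 0.117), CD44 at 11.26 and 10.47 (adjusted p = 0.0609), VIM at 13.79 and 13.70 and CAV1 at 12.07 and 12.36 (adjusted p = 0.931 and 0.606). With miR-365a AXL and CD44 fell in both lines, ERBB2 and PAX8 fell in SKOV3 and EPCAM rose in MDA-MB-231 (not on the deposited scale, adjusted p = 0.0733), and their part in the results on E2 genes was not tested. The hormone receptor ESR1 was at 7.28 in MDA-MB-231 and 8.83 in SKOV3 controls, PGR was near the floor in both, and of 5 genes of other cell types 4 were near the floor and none was called.

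The E2 genes moved in both directions, about as many up as down. In MDA-MB-231 cells 6 of 33 rose and 6 fell at an adjusted p under 0.05 by limma. Among all rows 14.4% rose and 11.7% fell, and the members' share was 18.2% in each direction. In SKOV3 cells 5 rose and 5 fell, or 15.2% each, where 7.25% of all rows rose and 7.11% fell. Of all rows 53.6% lay near the floor of the arrays in all 4 groups, against 4 members (UBE2B, UBE2K, UBE2S and UBE2U). Among rows with a mean above the 60th percentile of row means, 33.2% rose and 25.1% fell in MDA-MB-231 and 17.4% rose and 15.4% fell in SKOV3. The 29 members above that level had 20.7% in each direction in MDA-MB-231 and 17.2% in SKOV3, below the shares of rows at that level for MDA-MB-231 and close to them for SKOV3. At an unadjusted p under 0.05, 22 members differed in MDA-MB-231 and 14 in SKOV3, where 33.7% and 24.7% of all rows did, rows near the floor included. The counts of rises rest on single arrays: in SKOV3 there were 0 without control replicate 1, 1 without control replicate 2 and 2 without miR-365a replicate 3, with 3 falls without either control, and in MDA-MB-231 there were 2 rises without miR-365a replicate 2 or control replicate 3.

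UBE2L3, UBE2O and UBE2R2 fell in both lines and UBE2E1 and UBE2T rose in both, where 5.39% of all rows fell and 5.76% rose in both. In all, 17 members were called in at least 1 line, 51.5% against 29.2% of all rows, and none was called with opposite signs, which happened for 0.0734% of rows. The 29.2% includes the 53.6% of rows near the floor, and the share above the floor was not taken for this count. On the deposited scale the balance was different. There 2 members rose and 17 fell in MDA-MB-231 (7.26% and 17.9% of all rows), and 1 rose and 6 fell in SKOV3 (3.83% and 14% of all rows). UBE2E1 was the 1 member that rose in both lines there and 6 members fell in both, against 2.95% and 10.1% of all rows. Shares of all rows on this scale also include the rows near the floor, and no share above the floor was taken there. The share of falls among called members went from 50% to 89.5% in MDA-MB-231 and from 50% to 85.7% in SKOV3. Among all called rows it also went up, from 44.8% to 71.2% in MDA-MB-231 and from 49.5% to 78.6% in SKOV3. All 6 falls in MDA-MB-231 and all 5 in SKOV3 were called on both scales, whereas of the rises UBE2E1 in both lines and UBE2V2 in MDA-MB-231 were called on both.

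**Figure D1:**
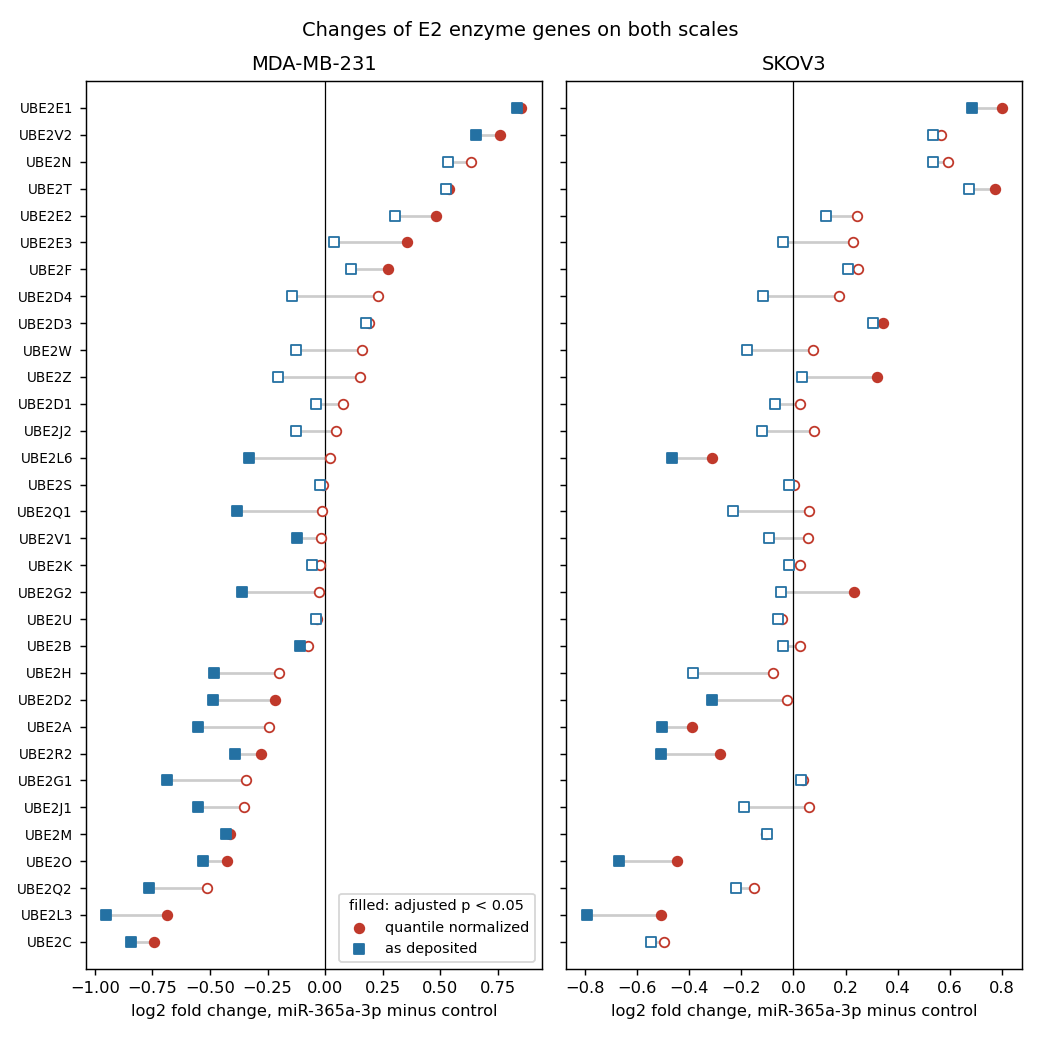
Log2 fold change of the E2 genes reported here, miR-365a-3p minus control, in MDA-MB-231 (left) and SKOV3 (right), ordered by the MDA-MB-231 change after quantile normalization. Circles are quantile-normalized values, squares are values as deposited, and filled symbols have an adjusted p under 0.05. Most squares lie to the left of their circles, while UBE2E1 stays on the right and UBE2L3, UBE2O and UBE2R2 on the left in both panels.

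UBE2L3, the E2 that serves HECT and RING-between-RING ligases, fell in both lines, by more than the other members that did so. Its log2 expression in MDA-MB-231 was 8.24, 8.33 and 8.45 in controls and 7.53, 7.74 and 7.70 with miR-365a. Its SKOV3 values were 8.13 and 8.14 in controls and 7.64, 7.64 and 7.60 with miR-365a. Every miR-365a array lay below every control array of its line. UBE2L3 fell by 0.69 (SE 0.0624, adjusted p = 0.00011) in MDA-MB-231 and by 0.51 (SE 0.0698, adjusted p = 0.0018) in SKOV3. The change held its call without any single array and under each setting tried.

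UBE2O, a large enzyme that acts as both E2 and E3 and clears unassembled protein subunits, fell by nearly the same amount in both lines. It was at 7.74, 7.78 and 7.73 in MDA-MB-231 controls and at 7.29, 7.35 and 7.33 with miR-365a. SKOV3 controls had 7.82 and 7.84, and SKOV3 miR-365a arrays 7.30, 7.41 and 7.44. The groups did not overlap, and the miR-365a arrays were under 7.45, so the fall ended near the floor. UBE2O fell by 0.43 (SE 0.0356, adjusted p = 7.08e-05) in MDA-MB-231 and by 0.45 (SE 0.0398, adjusted p = 0.000207) in SKOV3.

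UBE2R2 works with cullin-RING ligases to build proteasome-directed chains. Its log2 expression was 7.68, 7.69 and 7.67 in MDA-MB-231 controls against 7.40, 7.39 and 7.41 with miR-365a. The SKOV3 values were 7.75 and 7.77 against 7.55, 7.40 and 7.48. The groups did not overlap in either line, although these values are also close to the floor. It fell by 0.28 in each line (SE 0.0327, adjusted p = 0.000396 in MDA-MB-231, and SE 0.0366, adjusted p = 0.00137 in SKOV3). Its close relative CDC34, which lies outside the symbol rule, went the other way. CDC34 was at 7.89, 8.02 and 8.07 in MDA-MB-231 controls and 8.62, 8.56 and 8.32 with miR-365a, and at 8.21 and 8.07 in SKOV3 controls and 8.84, 8.57 and 8.67 with miR-365a. It rose by 0.51 (adjusted p = 0.00435) and 0.56 (adjusted p = 0.00889), and its groups did not overlap. On the deposited scale both calls were lost, at 0.14 (adjusted p = 0.42) and 0.29 (adjusted p = 0.121), while UBE2R2 kept its falls.

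UBE2E1 belongs to a group of 3 E2 enzymes with a long amino-terminal extension before the catalytic domain. It was at 10.17, 10.54 and 9.82 in MDA-MB-231 controls and at 10.97, 11.10 and 11.01 with miR-365a. In SKOV3 it was at 9.42 and 9.19 in controls and at 10.26, 9.94 and 10.09 with miR-365a. All miR-365a arrays were above the controls of their line. UBE2E1 rose by 0.85 (SE 0.166, adjusted p = 0.00507) in MDA-MB-231 and by 0.80 (SE 0.186, adjusted p = 0.0216) in SKOV3. The SKOV3 call was lost when either SKOV3 control or miR-365a replicate 1 or 3 of SKOV3 was left out (adjusted p up to 0.182). UBE2E2 and UBE2E3 also rose in MDA-MB-231, by 0.48 (adjusted p = 0.0282) and 0.36 (adjusted p = 0.0233). Both were higher in every miR-365a array of either line than in the controls (UBE2E2 in SKOV3 replicate 3 by less than the second decimal), but the SKOV3 changes of 0.24 and 0.23 did not pass (adjusted p = 0.417 and 0.237). Neither was called in MDA-MB-231 on the deposited scale (0.30 and 0.04), nor without miR-365a replicate 1 or 2 or control replicate 1 or 3 of MDA-MB-231 (adjusted p up to 0.0947 and 0.0848).

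UBE2T monoubiquitinates FANCD2 together with FANCL in the Fanconi anemia repair pathway. In MDA-MB-231 it was at 10.10, 10.71 and 10.14 in controls and at 11.08, 10.83 and 10.66 with miR-365a, so control replicate 2 overlapped the treated arrays. In SKOV3 it was at 9.31 and 9.50 in controls and at 10.30, 10.05 and 10.18 with miR-365a, with no overlap. UBE2T rose by 0.54 (SE 0.169, adjusted p = 0.0459) and 0.77 (SE 0.189, adjusted p = 0.0264). The MDA-MB-231 call was lost in 9 of the 11 fits that leave out 1 array (adjusted p up to 0.154) and the SKOV3 call in 4 (up to 0.18), and neither was made on the deposited scale (adjusted p = 0.0826 and 0.0634).

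The promoter window of UBE2T is printed because UBE2T rose where 10 of 18 mitotic genes, described further on, fell in MDA-MB-231. In SKOV3 4 of these mitotic genes fell and 1 rose. The UBE2T window also holds letters of 2 elements known from promoters of cell-cycle genes, the CHR core and the CCAAT box. The window runs from 250 bases before to 50 bases after the annotated start, at chr1:202341887-202342186 on the minus strand of GRCh38.p14, from RefSeq. Capitals mark TTTGAA, at bases -153 to -148, and CCAAT, at -124 to -120 and -73 to -69.
UBE2T promoter: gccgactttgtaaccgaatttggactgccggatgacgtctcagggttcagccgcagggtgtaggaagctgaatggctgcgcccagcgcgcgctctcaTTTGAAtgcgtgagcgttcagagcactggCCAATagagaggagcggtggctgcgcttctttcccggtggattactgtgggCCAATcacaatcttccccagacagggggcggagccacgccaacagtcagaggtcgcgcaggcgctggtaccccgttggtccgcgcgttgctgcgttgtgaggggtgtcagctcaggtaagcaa
Promoter windows were held for 26 of the 33 members, 38 windows in all, and both strands were searched. TTTGAA was in 3 of the 38 (UBE2F, UBE2T and UBE2U) and in 15.2% of all 35116 windows, and CCAAT was in 11 of 38 and in 34.6% of all windows. The same 3 members held both, against 5.9% of all windows. A match is a description of letters and no evidence of binding.

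UBE2V2 and UBE2N form the pair that builds lysine-63 chains, in which UBE2V2 has no catalytic cysteine and UBE2N carries the ubiquitin. UBE2V2 was at 9.34, 9.90 and 9.64 in MDA-MB-231 controls and at 10.55, 10.49 and 10.12 with miR-365a. SKOV3 arrays were at 10.05 and 10.18 in controls and at 10.91, 10.53 and 10.61 with miR-365a. The groups did not overlap in either line. It rose by 0.76 (SE 0.167, adjusted p = 0.00904) in MDA-MB-231, while the SKOV3 change of 0.57 did not pass (adjusted p = 0.0826). UBE2N was likewise higher in every miR-365a array, from 9.65 to 9.92 in MDA-MB-231 controls and from 10.17 to 10.69 with miR-365a, and from 10.03 to 10.17 in SKOV3 controls and from 10.20 to 11.21 with miR-365a. Its changes of 0.64 (adjusted p = 0.0811) and 0.59 (adjusted p = 0.199) did not pass. UBE2V1, the other partner of UBE2N, differed by -0.02 and 0.06 and was not called.

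**Figure D2:**
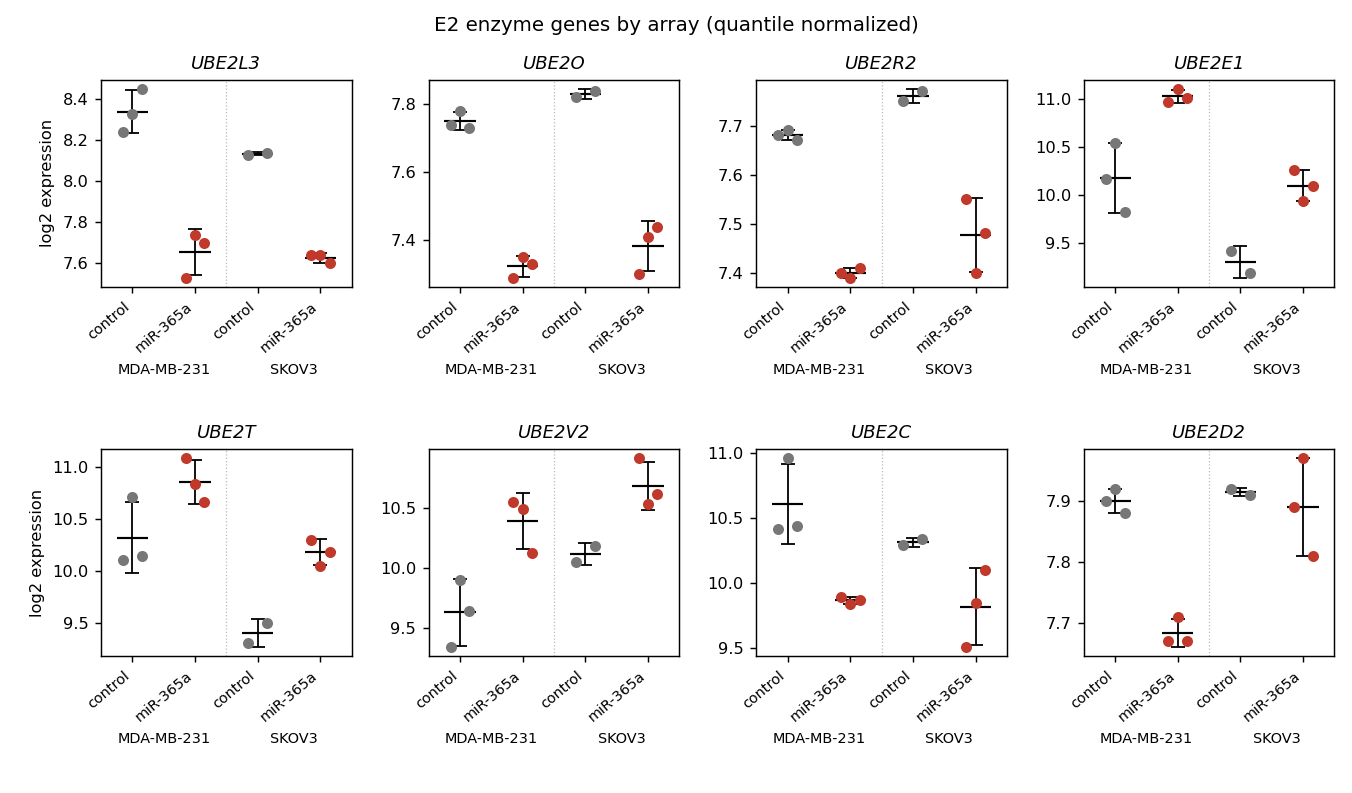
Log2 expression (quantile normalized) of 8 E2 genes, 1 point per array, with control arrays in gray and miR-365a-3p arrays in red, bars at the group mean and whiskers of 1 SD (3 arrays per group, 2 for SKOV3 controls). Each panel has its own axis. The red points of UBE2L3, UBE2O and UBE2R2 lie below the gray ones in both lines, those of UBE2E1 and UBE2V2 above, and UBE2D2 separates in MDA-MB-231 alone.

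Of the E2 enzymes of the anaphase-promoting complex, UBE2C places the first ubiquitins on cyclins and UBE2S extends the chain. UBE2C was at 10.42, 10.96 and 10.44 in MDA-MB-231 controls and at 9.89, 9.84 and 9.87 with miR-365a. The SKOV3 arrays gave 10.29 and 10.34 in controls and 9.51, 9.85 and 10.10 with miR-365a. No treated array reached a control array of its line. UBE2C fell by 0.74 (SE 0.169, adjusted p = 0.0109) in MDA-MB-231 and its SKOV3 difference of -0.50 did not pass (adjusted p = 0.135). UBE2S lay near the floor in all groups and differed by -0.01 and 0.00.

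The UBE2D enzymes, which work with a wide range of RING ligases, did not share a direction. UBE2D2 was at 7.90, 7.92 and 7.88 in MDA-MB-231 controls and at 7.67, 7.71 and 7.67 with miR-365a, and fell by 0.22 (SE 0.0376, adjusted p = 0.00277). In SKOV3 it was at 7.92 and 7.91 in controls and at 7.89, 7.97 and 7.81 with miR-365a, which overlapped (adjusted p = 0.84). The 2 changes differed by 0.19 (SE 0.0564), with an adjusted p of 0.156 for that difference. UBE2D3 was at 10.15 and 10.25 in SKOV3 controls and at 10.42, 10.61 and 10.60 with miR-365a, and rose by 0.35 (SE 0.0939, adjusted p = 0.0413). In MDA-MB-231 it was at 10.33, 10.43 and 10.40 in controls and at 10.42, 10.57 and 10.75 with miR-365a, a difference of 0.19 (adjusted p = 0.148). The UBE2D3 call was lost in 8 of 11 fits without 1 array (adjusted p up to 0.251) and on the deposited scale (adjusted p = 0.0734), where UBE2D2 fell in both lines. UBE2D1 and UBE2D4 were not called in either line.

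The E2 enzymes of NEDD8, the modifier that activates cullin ligases, moved apart in MDA-MB-231. UBE2M was at 10.75, 10.80 and 10.81 in controls and at 10.25, 10.45 and 10.43 with miR-365a, and fell by 0.41 (SE 0.0982, adjusted p = 0.0136). UBE2F was at 9.64, 9.84 and 9.50 in controls and at 9.99, 9.93 and 9.89 with miR-365a, and rose by 0.28 (SE 0.0871, adjusted p = 0.0472). Neither passed in SKOV3 (-0.11 and 0.25, adjusted p = 0.709 and 0.146). The rise of UBE2F was lost in 8 of 11 fits without 1 array (adjusted p up to 0.148) and on the deposited scale (adjusted p = 0.476), and the fall of UBE2M was lost without miR-365a replicate 1 of MDA-MB-231 (adjusted p = 0.0521).

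UBE2L6, the E2 of the interferon-induced modifier ISG15, fell in SKOV3 alone of the 2 lines. It was at 9.27 and 9.28 in SKOV3 controls and at 8.90, 9.06 and 8.94 with miR-365a, with no overlap, and fell by 0.31 (SE 0.0648, adjusted p = 0.0131). In MDA-MB-231 the groups overlapped, at 8.57, 8.78 and 8.63 against 8.62, 8.71 and 8.70 (adjusted p = 0.861). The difference between the lines was -0.33 (SE 0.0869, adjusted p = 0.106). The SKOV3 call was lost without either SKOV3 control array (adjusted p up to 0.0973), and on the deposited scale UBE2L6 fell in MDA-MB-231 too (-0.33, adjusted p = 0.049).

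UBE2A and UBE2B are the 2 human RAD6 proteins, which act on histone H2B and on the sliding clamp PCNA. UBE2A was at 9.47 and 9.52 in SKOV3 controls and at 9.25, 8.92 and 9.15 with miR-365a, and fell by 0.39 (SE 0.109, adjusted p = 0.0458). In MDA-MB-231 it was at 8.94, 9.03 and 9.23 in controls and at 8.87, 8.88 and 8.72 with miR-365a, also without overlap, a difference of -0.24 (adjusted p = 0.112). UBE2A fell in both lines on the deposited scale (adjusted p = 0.00495 and 0.0185), and its SKOV3 call was lost in 8 of 11 fits without 1 array (adjusted p up to 0.246). UBE2B was near the floor and was not called.

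UBE2Z, which takes ubiquitin and FAT10 from the E1 enzyme UBA6, was at 8.14 and 8.21 in SKOV3 controls and at 8.51, 8.47 and 8.50 with miR-365a. It rose by 0.32 (SE 0.0588, adjusted p = 0.00741) with no overlap, and its MDA-MB-231 difference of 0.15 did not pass (adjusted p = 0.0657). The rise was lost without SKOV3 control replicate 1 (adjusted p = 0.0744) and on the deposited scale, where it was 0.03 (adjusted p = 0.895). UBA6 itself, named after its values were seen, fell by 1.42 (SE 0.257, adjusted p = 0.00351) in MDA-MB-231 and differed by -0.39 in SKOV3 (adjusted p = 0.527).

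Among the E2 enzymes of endoplasmic reticulum-associated degradation, UBE2G2 rose by 0.23 in SKOV3 (SE 0.0655, adjusted p = 0.0481), from 7.89 and 7.86 to 8.11, 8.17 and 8.04. This call did not hold. It was lost in 8 of 11 fits without 1 array (adjusted p up to 0.258), and the sign turned on the deposited scale (-0.05, adjusted p = 0.806) and with median centring (-0.01, adjusted p = 0.941). UBE2J1 and UBE2J2 were not called, and UBE2J1 lay lower in all 3 miR-365a arrays of MDA-MB-231 (7.41 to 7.66 against 7.77 to 8.05 in controls, adjusted p = 0.149).

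The remaining members, UBE2G1, UBE2H, UBE2K, UBE2Q1, UBE2Q2, UBE2U and UBE2W, were not called for the treatment in either line. Among them UBE2Q2 had the widest difference in MDA-MB-231, -0.51 (adjusted p = 0.0945), with controls from 9.59 to 9.77 and miR-365a arrays from 8.82 to 9.37. UBE2W, which attaches ubiquitin to protein amino termini, differed by 0.16 and 0.08 (adjusted p = 0.0768 and 0.601).

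Across the 33 members the changes in the 2 lines ran together, as they did over all rows. The sign was the same in both lines for 24 members (72.7%) and for 67.7% of all rows. Pearson's r between the lines was 0.886 and Spearman's rho 0.857 over the 33 genes, and 0.827 and 0.638 over all rows, given as a description because genes on the same arrays are not independent. Same-numbered miR-365a arrays of the 2 lines also deviated together from their group means (r = 0.70, 0.31 and 0.34 over 6853 rows), and the part of this in the likeness of the lines was not tested. The miR-365a arrays lay wholly above the controls in both lines for 6 members (UBE2E1, UBE2E2, UBE2E3, UBE2F, UBE2N and UBE2V2) and wholly below for 5 (UBE2A, UBE2C, UBE2L3, UBE2O and UBE2R2), against 13.3% and 10.3% of all rows. The shares and correlations over all rows in this paragraph include rows near the floor. No member passed the test of a difference between the lines, where 1.3% of rows were higher and 1.24% lower, and 3 members (UBE2D2, UBE2G2 and UBE2L6) had an unadjusted p under 0.05, against 12.8% of rows. The median change over the members was -0.02 in MDA-MB-231 (range -0.74 to 0.85) and 0.04 in SKOV3 (range -0.51 to 0.80), and 0.01 over all rows in each line.

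**Figure D3:**
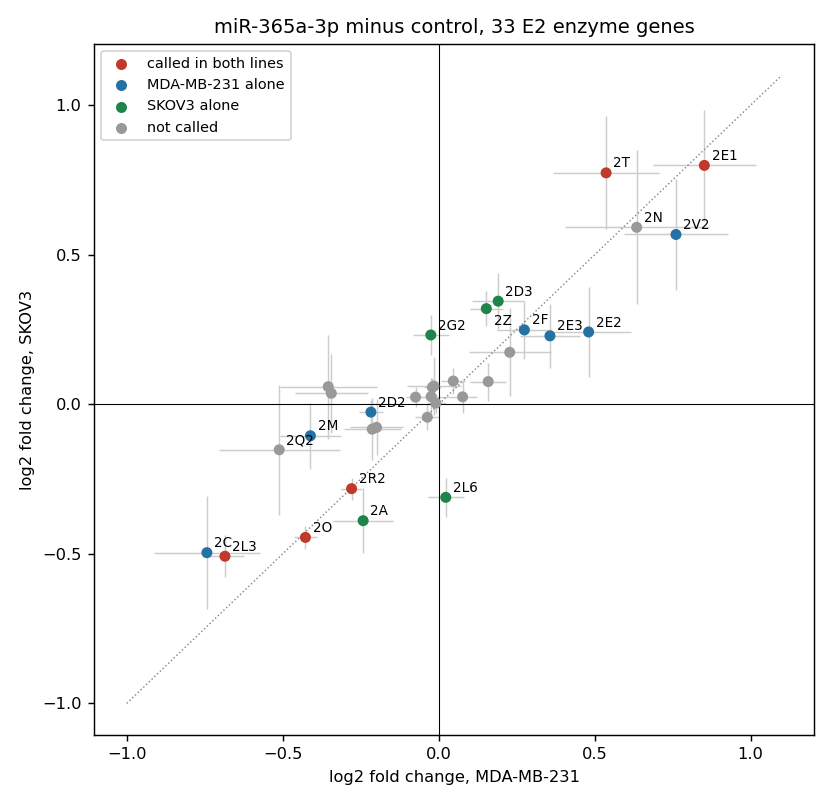
Log2 fold change of the 33 E2 genes with miR-365a-3p in MDA-MB-231 (horizontal) and SKOV3 (vertical), with whiskers of 1 standard error from the fit and a dotted line of equal change. Labels drop the letters UBE. Points called in both lines (red) lie at the lower left (UBE2L3, UBE2O, UBE2R2) and upper right (UBE2E1, UBE2T). UBE2L6 and UBE2G2 stand off the dotted line, and UBE2J1, UBE2G1 and UBE2Q2, called in neither line, lie farther from it.

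The control arrays also show how the 2 lines differ in E2 genes without miR-365a. Compared with MDA-MB-231 controls, SKOV3 controls were higher in 4 members, among them UBE2A, UBE2F and UBE2L6, and lower in 3 (UBE2E1, UBE2G1 and UBE2T), where 8.34% of all rows were higher and 7.76% lower. UBE2G1, a builder of lysine-48 chains with cullin ligases, differed most. It was at 8.65, 9.19 and 9.04 in MDA-MB-231 controls and at 7.28 in both SKOV3 controls, under the 7.45 level, and was at 7.32 in the 3 SKOV3 miR-365a arrays. The difference was -1.68 (SE 0.132, adjusted p = 4.7e-05). The SKOV3 values lie at the floor, which bounds the size this difference can take.

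UBE2L6 was 0.62 higher in SKOV3 (SE 0.0648, adjusted p = 0.000227). This comparison shares its control arrays with the SKOV3 fall. The other comparisons between control lines likewise share their control arrays with the treatment changes of the same genes. UBE2T was 0.92 lower (SE 0.189, adjusted p = 0.00997) and UBE2E1 0.88 lower (SE 0.186, adjusted p = 0.0114) in SKOV3. UBE2F was 0.44 higher (adjusted p = 0.014) and UBE2A 0.43 higher (adjusted p = 0.0271). The differences of UBE2G1 and UBE2L6 held their calls without any single array. The call of UBE2A was lost in 4 such fits (adjusted p up to 0.166), that of UBE2F in 2 (up to 0.091), that of UBE2E1 without SKOV3 control replicate 2 (0.111) and that of UBE2T without SKOV3 control replicate 1 (0.0947).

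**Figure D4:**
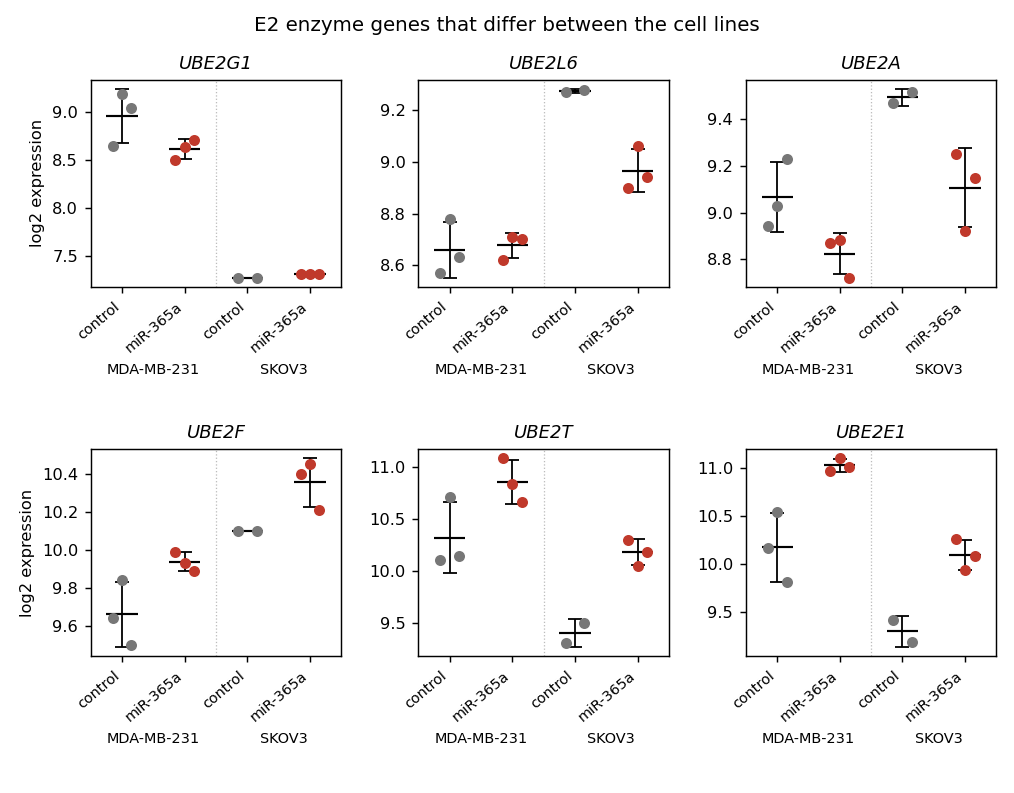
Log2 expression (quantile normalized) of UBE2G1, UBE2L6, UBE2A, UBE2F, UBE2T and UBE2E1, which differ between SKOV3 and MDA-MB-231 controls, 1 point per array, controls in gray and miR-365a-3p in red, with group mean and SD. UBE2G1 sits at 7.28 or 7.32 in the SKOV3 arrays and at 8.50 or above in the MDA-MB-231 arrays.

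The enzymes around the E2 step were taken as 10 lists. Their counts stand against the shares of all rows, 14.4% up and 11.7% down in MDA-MB-231 and 7.25% and 7.11% in SKOV3. Of rows above the 60th percentile, 33.2% rose and 25.1% fell in MDA-MB-231 and 17.4% and 15.4% in SKOV3. Counts on the deposited scale stand against 7.26% up and 17.9% down in MDA-MB-231 and 3.83% and 14% in SKOV3. Those deposited shares are of all rows, and none above the 60th percentile was taken. No list was tested against other genes. Among 10 E1 enzymes and their subunits, 5 rose and 2 fell in MDA-MB-231 and 4 rose and 1 fell in SKOV3. UBA1, the main ubiquitin E1, fell in both (-1.39 and -1.25, adjusted p = 0.00149 and 0.00842), while the NEDD8 E1 subunits UBA3 (1.03 and 0.88) and NAE1 (0.95 and 0.96) rose in both. Of 14 ubiquitin-like modifiers and ubiquitin genes, 6 rose and 1 fell in MDA-MB-231 and 2 rose in SKOV3, ISG15 among them (1.06 and 0.77). Of 8 E2 genes under other names, 6 rose in MDA-MB-231 and 4 rose and 1 fell in SKOV3, with CDC34, AKTIP (0.86 and 0.57) and ATG3 (0.46 and 0.64) among those that rose in both. On the deposited scale 3 rose and 1 fell in MDA-MB-231 and 1 rose and 1 fell in SKOV3, where AKTIP kept both calls and ATG3 lost both (adjusted p = 0.198 and 0.0559). The deposited counts for the E1 list were 3 up and 2 down in MDA-MB-231 and 4 up and 2 down in SKOV3, and for the modifiers 5 up in MDA-MB-231 and 1 up in SKOV3, ISG15 losing its SKOV3 call (adjusted p = 0.06).

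Among E3 ligases, UBE2L3 delivers ubiquitin to the HECT family. Of 27 HECT genes 13 fell and 1 rose in MDA-MB-231 and 7 fell in SKOV3, while the others did not pass, with a median of -0.20 and -0.10. UBE3B fell by 0.82 and 0.51, and HERC2 by 0.53 and 0.44. Of 16 genes of the anaphase-promoting complex 4 rose in MDA-MB-231 and 3 in SKOV3, and ANAPC10 rose by 0.94 and 0.80. Of 20 cullin-RING genes 7 rose and 3 fell in MDA-MB-231 and 3 rose in SKOV3, with RBX1 at 0.57 and 0.64 and DCUN1D1 at 0.75 and 0.60. On the deposited scale the balance of the cullin-RING list turned, with 4 up and 5 down in MDA-MB-231 and 2 up and 2 down in SKOV3. The anaphase-promoting complex had 3 up and 1 down in MDA-MB-231 and 1 up and 1 down in SKOV3 there, and ANAPC10 lost its SKOV3 call (adjusted p = 0.0921).

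Of 12 genes of endoplasmic reticulum-associated degradation 6 fell and 1 rose in MDA-MB-231 and 3 fell and 1 rose in SKOV3, and HERPUD1 (-1.12 and -1.14) and the ligase SYVN1 (-0.65 and -0.70) fell in both. Of 14 genes of the RAD6 and Fanconi pathways 4 fell and 2 rose in MDA-MB-231 and 2 fell and 1 rose in SKOV3. RNF20, the H2B ligase that works with UBE2A, fell by 0.90 and 0.92, and FANCD2, the substrate of UBE2T, fell by 0.48 and 0.41. Of 18 mitotic genes 10 fell in MDA-MB-231, and 4 fell and 1 rose in SKOV3, among them TPX2 (-1.80 and -0.94), KIF20A (-1.264 and -1.001) and PLK1 (-0.65 and -0.91). In MDA-MB-231 UBE2C moved with the 10 mitotic genes that fell and UBE2T did not, while the other mitotic genes were not called. In SKOV3 the UBE2C difference did not pass. The part of the mitotic genes in either result was not tested. Of 21 genes of the ISG15 and interferon list 14 rose in MDA-MB-231 and 8 rose and 1 fell in SKOV3, with IFIT1 at 1.54 and 0.79 and IFI44 at 1.12 and 1.02. UBE2L6, itself an interferon-induced gene, did not rise in either line. On the deposited scale the interferon list had 6 genes that rose and 1 that fell in MDA-MB-231 and 2 and 3 in SKOV3, and 19 HECT genes fell and 1 rose in MDA-MB-231 and 12 fell in SKOV3. IFIT1 lost its SKOV3 call there (adjusted p = 0.0894). The degradation list had 8 falls and 1 rise in MDA-MB-231 and 5 falls in SKOV3, the RAD6 and Fanconi list 5 and 4 falls, and the mitotic list 10 falls in MDA-MB-231 and 4 falls and 1 rise in SKOV3.

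**Figure D5:**
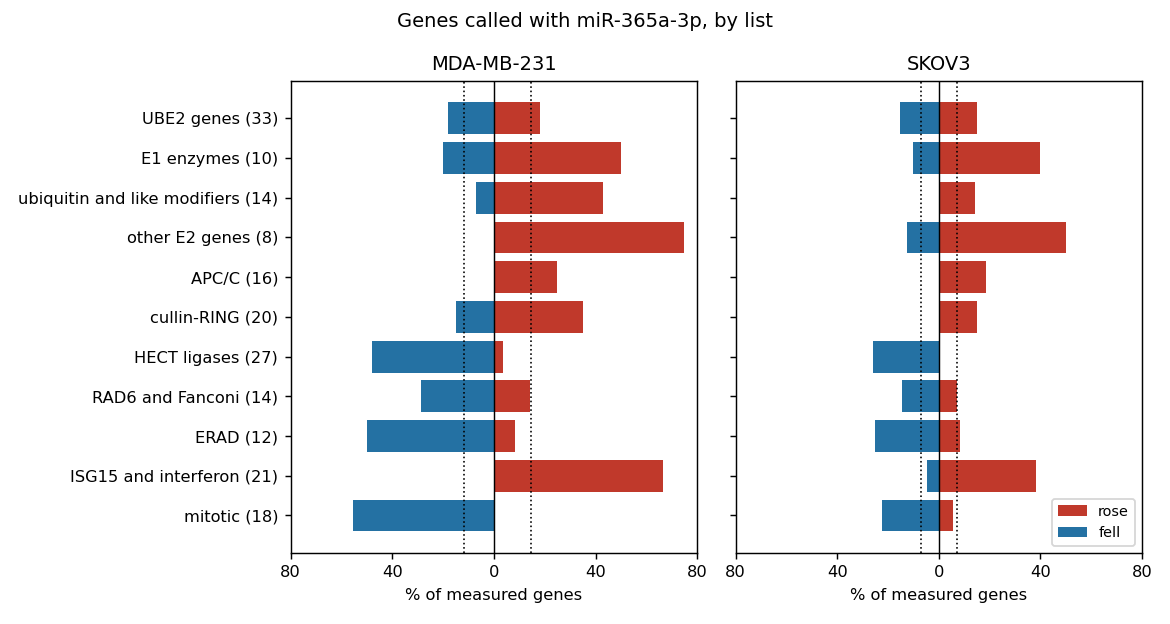
Share of the measured genes of each list that rose (red, to the right) or fell (blue, to the left) with miR-365a-3p at an adjusted p under 0.05 after quantile normalization, with the number of genes in brackets. Dotted lines mark the shares over all 31325 rows. The UBE2 genes are near balanced, HECT, mitotic and degradation genes extend to the left, and interferon and other E2 genes to the right.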

How the data were processed

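Total RNA of 11 samples was extracted with Trizol and the miRVana kit, amplified to biotin-labelled cRNA (TotalPrep) and hybridised to HumanHT-12 v4 BeadChips. Per the labels and the paper's methods, lumi's quantile normalization was applied by the authors, and the deposited values, 1 per gene symbol and array, are on a log2 scale. How probes of a gene were combined, background correction and the exact log transformation are not given in the sources used here, and probe detection is unknown. A value is therefore 1 row per symbol, with a floor near the array median (7.35 to 7.41). The deposited columns did not share a distribution, so they were quantile normalized in limma 3.58.1 (R 4.3.3). A difference can depend on this step, and the deposited scale is given beside counts.

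Groups follow the labelled line and treatment, with all 11 arrays in use. For each of the 31325 rows limma estimated the 4 group means and eBayes moderated the contrasts. Benjamini-Hochberg adjustment covered every row (threshold 0.05). Single values were tested by exact permutation of treatment within lines (200 arrangements, smallest p 0.005; within MDA-MB-231 alone 0.1). A row was near the floor where all 4 group means were under 7.45, the 60th percentile of row means. Members and the 14 gene lists (175 entries, 8 found under an older symbol) were chosen with earlier results of these data known. Members were named by role, with array values where a member was called or its paralogs moved apart, and up to 3 genes of each other list were named by the size of change among those called in both lines, together with a few partners of members. The values of 1 member and of 1 listed gene are counted but not reported here by name. The fit was tested on simulated data: 200 genes were shifted by a log2 change of 1, and 95% of them were recovered in each line. Of another 200 shifted by 1 in MDA-MB-231 alone, 83.5% were recovered as a difference between lines. The E2 genes changed by less than 1, from -0.74 to 0.85 in MDA-MB-231 and from -0.51 to 0.80 in SKOV3. Their differences between lines ran from -0.33 to 0.41. Recovery of changes or differences of these sizes was not tested. The simulated noise was drawn independently for each array, whereas same-numbered miR-365a arrays of the lines deviated together in the data. Far more rows were called in the data than were shifted in the simulation. Its recovery need not hold for these data. No raw counts exist for arrays, and 3 or 2 arrays per group limit the precision. The alternatives tried were other scalings, filters, thresholds, blocks, weights and leaving out each array.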

Additional observations from a re-analysis of the deposited data

Results flagged for a closer look

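Of the 33 members and the 175 list entries, 6 genes changed differently in the 2 lines by the limma test of the difference itself. None is a UBE2 member. Among all rows 1.3% were higher and 1.24% lower in this test, rows near the floor included. Values are SKOV3 change minus MDA-MB-231 change. The HECT ligase NEDD4L fell by 0.71 in MDA-MB-231 and differed by -0.10 in SKOV3, a difference of 0.61 (adjusted p = 0.00782). HECTD2 rose by 0.52 in MDA-MB-231 and differed by 0.03 in SKOV3, a difference of -0.49 (adjusted p = 0.00378). Of the interferon genes, IFIT2 rose by 1.62 and 0.43 (difference -1.20, adjusted p = 0.00582), IRF9 by 1.27 and 0.58 (difference -0.70, adjusted p = 0.0409), and OAS2 rose by 0.32 in MDA-MB-231 and differed by 0.03 in SKOV3 (difference -0.29, adjusted p = 0.00958). The SKOV3 marker PAX8 differed by -0.03 in MDA-MB-231, near the floor, and fell by 0.70 in SKOV3 (difference -0.67, adjusted p = 9.61e-05). On the deposited scale the differences were 0.67 for NEDD4L, -0.24 for HECTD2, -1.25 for IFIT2, -0.67 for IRF9 and -0.90 for PAX8, all of which passed (adjusted p = 0.000626, 0.0311, 0.000524, 0.0251 and 3.01e-05). OAS2 did not pass there, with a difference of -0.07 (adjusted p = 0.478) and a change of 0.07 in MDA-MB-231 (adjusted p = 0.0547), and IFIT2 was not called in SKOV3 (0.17, adjusted p = 0.185).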

How the results depend on the processing

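The falls of UBE2L3, UBE2O and UBE2R2 in both lines and of UBE2C and UBE2D2 in MDA-MB-231, and the rises of UBE2E1 and UBE2V2 in MDA-MB-231, kept their direction under every setting tried, and lost their call only under a stricter p or fold limit where they lost it at all. The differences of UBE2G1 and UBE2L6 between control lines kept direction and call under every setting. The other calls were each lost under at least 1 setting or without at least 1 array.

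Members that rose in MDA-MB-231 (6) numbered 2 on the deposited scale, 2 with median centring, 2 at an adjusted p under 0.01 and 3 with a log2 change of at least 0.5. Members that rose in SKOV3 (5) numbered 1 on the deposited scale, 2 with centring, 3 with SKOV3 fitted alone, 2 with the replicate block within lines, 3 with trend and robust moderation, 1 at 0.01 and 2 with the fold limit. Members that rose in both lines (2) numbered 1 on the deposited scale, 1 with cyclic loess, 1 with centring, 1 with lines alone, 5 with array weights and 0 at 0.01. Members that fell in MDA-MB-231 (6) numbered 17 on the deposited scale, 13 with centring, 10 with array weights and 2 with the fold limit; in SKOV3 (5) they numbered 3 with trend and robust moderation, 3 at 0.01 and 1 with the fold limit; in both (3) 6 on the deposited scale, 5 with centring and 1 with the fold limit. Between control lines, members higher in SKOV3 (4) numbered 7 as deposited, 7 with centring, 2 with the replicate block shared by lines, 1 with trend and robust moderation, 8 with array weights, 1 at 0.01 and 1 with the fold limit, and members lower (3) numbered 5 with array weights. The difference between lines gained 1 member, UBE2L6, with array weights. The member median of -0.02 in MDA-MB-231 was -0.146 as deposited, -0.038 with loess, -0.114 with centring and -0.036 with array weights, and that of 0.04 in SKOV3 was -0.092 as deposited and -0.055 with centring. UBE2G2 in SKOV3 reversed from 0.23 to -0.049 as deposited and to -0.011 with centring. In each case the cause was not tested.

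Leaving out 1 array gave 2 to 6 rises and 5 to 9 falls in MDA-MB-231, 0 to 5 and 3 to 5 in SKOV3, 0 to 3 and 3 to 3 in both, 1 to 6 and 2 to 4 between control lines, and 0 to 1 each for the difference (UBE2G1 higher without MDA-MB-231 control replicate 1, UBE2D2 higher without SKOV3 miR-365a replicate 3 and UBE2L6 lower without MDA-MB-231 control replicate 2), with medians from -0.033 to 0.005 and from 0.007 to 0.053. The rises in SKOV3 numbered 3 without MDA-MB-231 miR-365a replicate 2, MDA-MB-231 control replicate 1 or 3, or SKOV3 miR-365a replicate 1 or 2. Within a line the replicate numbers showed no clear pairing of treated and control arrays: same-numbered arrays of a line deviated with r from -0.12 to 0.23 over 6853 rows. Across lines the same-numbered miR-365a arrays had r = 0.70, 0.31 and 0.34, but the controls 0.12 and -0.13. With a block shared by lines, UBE2A (adjusted p = 0.0783) and UBE2G2 (0.11) in SKOV3, UBE2T in MDA-MB-231 (0.0648) and UBE2A between control lines (0.0589) lost their calls. With the block within lines 7 members rose and 7 fell in MDA-MB-231 and 4 fell in SKOV3. In that fit UBE2T lost its calls (adjusted p = 0.128 and 0.127), as did UBE2A (0.191), UBE2D3 (0.07), UBE2G2 (0.145) and UBE2Z (0.107) in SKOV3. The planned comparison with protein length was not run, since no protein table was used here.

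Low-signal genes limit what can be seen: UBE2O and UBE2R2 end near the floor after the fall, and UBE2B, UBE2K, UBE2S and UBE2U lay near the floor in all groups. SKOV3 controls number 2, and the exact permutation test within MDA-MB-231 alone, unlike limma, cannot give a p below 0.1.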
